A study of Homo sapiens with 8 samples.

Results

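The 55 genes described here lie on the long arm of chromosome 17 (17q), from LGALS9 near the centromere to UBTF further along the arm. They were named for lower messenger RNA levels in cells resistant to a BET inhibitor than in the cells they came from. A list of 56 symbols named them, and 55 were found among the 19718 coding genes of the table; DNAJC7, the other symbol, was not analysed here. The choice rested on the level in the resistant line against that in the starting line, without and with the drug. Those values are therefore a description: the count of members past the threshold between the lines is given once, beside that of all genes, and supports nothing. Tests are kept for the response to the drug within each line and for genes elsewhere.

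RNA was sequenced from HEL OTX P/R (P/R cells), a persister-resistant derivative of the leukaemia line HEL92.1.7, and from HEL92.1.7 itself (parental cells), an erythroleukaemia line labelled as secondary acute myeloid leukaemia. The drug was OTX015 (birabresib), which occupies the bromodomain pocket by which BET proteins bind acetylated histones. The 4 groups were P/R cells given 1000 nM OTX015 for 8 h, untreated P/R cells, parental cells given the same dose and time, and untreated parental cells, with 2 independently treated biologic replicates in each. All groups grew in RPMI1640 with 20% FBS. Whether the P/R line is a single clone, how it was selected and whether the untreated P/R cells had been kept in the drug are not stated in the sources used, and a difference between the lines is a difference between 2 cell lines, each sampled as repeat cultures.

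Neighbouring genes on a chromosome arm often have unrelated functions, and many are switched on by promoters of their own, though some overlap. The stretch of 17q described here holds genes long studied in cancer: ERBB2, the HER2 receptor of breast cancer, BRCA1, the DNA repair gene of inherited breast and ovarian cancer, NF1, which switches RAS off, and RARA, the retinoid receptor that is fused to PML in acute promyelocytic leukaemia. It also holds SUZ12 and EZH1 of Polycomb repressive complex 2 and several subunits of the proteasome.

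Levels are in FPKM (fragments counted per unit of transcript length and of library size), a unit inferred from the values and the tools. The authors' quantile normalization gave every library the same total of 678133 FPKM, so the depth of each library is unknown, and less RNA per cell cannot be told apart from fewer cells of a kind. Replicates correlated at r = 0.996 to 0.997 across genes and libraries of different groups at 0.959 to 0.985; genes are not independent replicates. The erythroid genes that HEL cells are known for were high in all libraries, with GATA1 between 327 and 386 FPKM, and CD3D, MS4A1, COL1A2 and ELANE, of lymphocytes, B cells, stroma and granulocyte precursors, were listed at 0. Of the 10 erythroid and megakaryocyte markers, the platelet genes PF4, GP9 and GP1BA stood higher in both P/R groups than in the parental groups: PF4 had 43.2 and 44.0 FPKM under OTX015 and 47.4 and 50.4 FPKM untreated in P/R cells, against 1.23 and 1.71 FPKM and 2.66 and 2.00 FPKM in parental cells. Of the other lists, the endothelial genes PECAM1 (3.84 to 13.5 FPKM over all libraries) and CDH5 (0.159 to 2.77 FPKM) and the monocyte gene LYZ (9.82 to 13.2 FPKM) were detected, and CD3E, EPCAM, CDH1, COL1A1, MPO and CD14 stayed under 1 FPKM. Summed over the 10 erythroid and megakaryocyte genes, the level was 3119.1 and 3294.5 FPKM in P/R cells and 3569.7 and 3337.9 FPKM in parental cells under OTX015, and 3900.6 and 3708.3 FPKM and 3697.2 and 3639.8 FPKM untreated. Their part in the results was not tested.

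Promoter sequences are shown for 3 members, chosen because they span the range of the differences: PSMD3, among the furthest below parental cells, PSMB3, an abundant member near the middle, and ALDOC, which hardly differed between the untreated lines. Each runs 5′ to 3′ on the gene's strand, from 250 bases before the start to 50 after it, from RefSeq on GRCh38.p14. PSMD3 is at chr17:39980557-39980856 (plus strand), PSMB3 at chr17:38752491-38752790 (plus strand) and ALDOC at chr17:28576846-28577145 (minus strand). Capitals mark the E-box CACGTG, which MYC and MAX bind, and the GC box GGGCGG or, on the other strand, CCGCCC.
PSMD3: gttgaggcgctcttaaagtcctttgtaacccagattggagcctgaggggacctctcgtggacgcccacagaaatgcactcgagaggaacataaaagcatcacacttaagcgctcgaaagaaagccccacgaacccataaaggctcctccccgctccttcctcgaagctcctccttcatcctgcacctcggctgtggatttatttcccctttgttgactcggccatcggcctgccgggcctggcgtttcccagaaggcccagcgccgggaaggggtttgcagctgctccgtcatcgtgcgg
PSMB3: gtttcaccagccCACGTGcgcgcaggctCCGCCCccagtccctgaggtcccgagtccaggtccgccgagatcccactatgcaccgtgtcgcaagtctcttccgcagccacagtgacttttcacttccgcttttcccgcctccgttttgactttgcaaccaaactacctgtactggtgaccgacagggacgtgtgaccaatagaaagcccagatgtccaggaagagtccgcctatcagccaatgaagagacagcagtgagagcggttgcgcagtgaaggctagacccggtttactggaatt
ALDOC: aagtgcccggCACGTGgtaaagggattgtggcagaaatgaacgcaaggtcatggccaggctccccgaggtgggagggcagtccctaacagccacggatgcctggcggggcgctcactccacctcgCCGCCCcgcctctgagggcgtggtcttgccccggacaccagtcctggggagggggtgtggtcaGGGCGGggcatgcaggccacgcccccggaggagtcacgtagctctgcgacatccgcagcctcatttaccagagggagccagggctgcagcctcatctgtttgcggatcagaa

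PSMD3 had neither motif in this window, and PSMB3 and ALDOC had both. A single promoter was listed for 37 of the 55 members and for 6170 of the tested genes, several for 13 members and none for NLK, FKBP10, CASC3, DDX52 and RHOT1. Both strands were searched. CACGTG was in 7 of the 37 member promoters (18.9%, against 11.1% of all 6170): those of AATF, ALDOC, LIG3, MIEN1, PSMB3, PSME3 and SYNRG. CTTTGA, the core of the TCF/LEF site, was in 3 (8.11%, against 7.78%), those of COASY, STARD3 and SUZ12. GGGCGG was in 26 (70.3%, against 73.3%) and TATAAA, the TATA box, in 0 of 37 (against 4.8%). The median GC content was 66.3% in the members' promoters and 65.7% in all. A match is only a description of the letters.

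The first comparison sets P/R cells against parental cells. Under OTX015 the median member stood at 65.7% of its parental level (interquartile range 61.3% to 71.4%), and untreated at 67.6% (63.8% to 72.3%). Differences are P/R minus parental on the log2(FPKM + 1) scale; their median was -0.58 under OTX015 and -0.55 untreated, against -0.01 over all 11255 tested genes in both conditions. Summed over the 55 members, the level was 2584 and 2573 FPKM in P/R cells under OTX015, against 3867 and 3857 FPKM in parental cells under OTX015. Untreated, the sums were 2431 and 2436 FPKM in P/R cells and 3697 and 3638 FPKM in parental cells. Every P/R sum lay below every parental sum.

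All 55 members had at least 1 FPKM in all 8 libraries, so the filter on low values removed none. By the limma fit over all genes (adjusted p under 0.05), 50 of 55 were lower in P/R cells under OTX015, where 11.7% of all tested genes were, and 49 of 55 untreated, where 11.9% were; none was higher. The genes were chosen on these same differences, so the counts follow from the choice and nothing is read from them. Both P/R libraries lay below both parental libraries for 54 members under OTX015 (32.6% of all tested genes did so) and for 53 untreated (33%). In both conditions at once this held for 52 members, and for 21% of all genes.

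**Figure D1:**
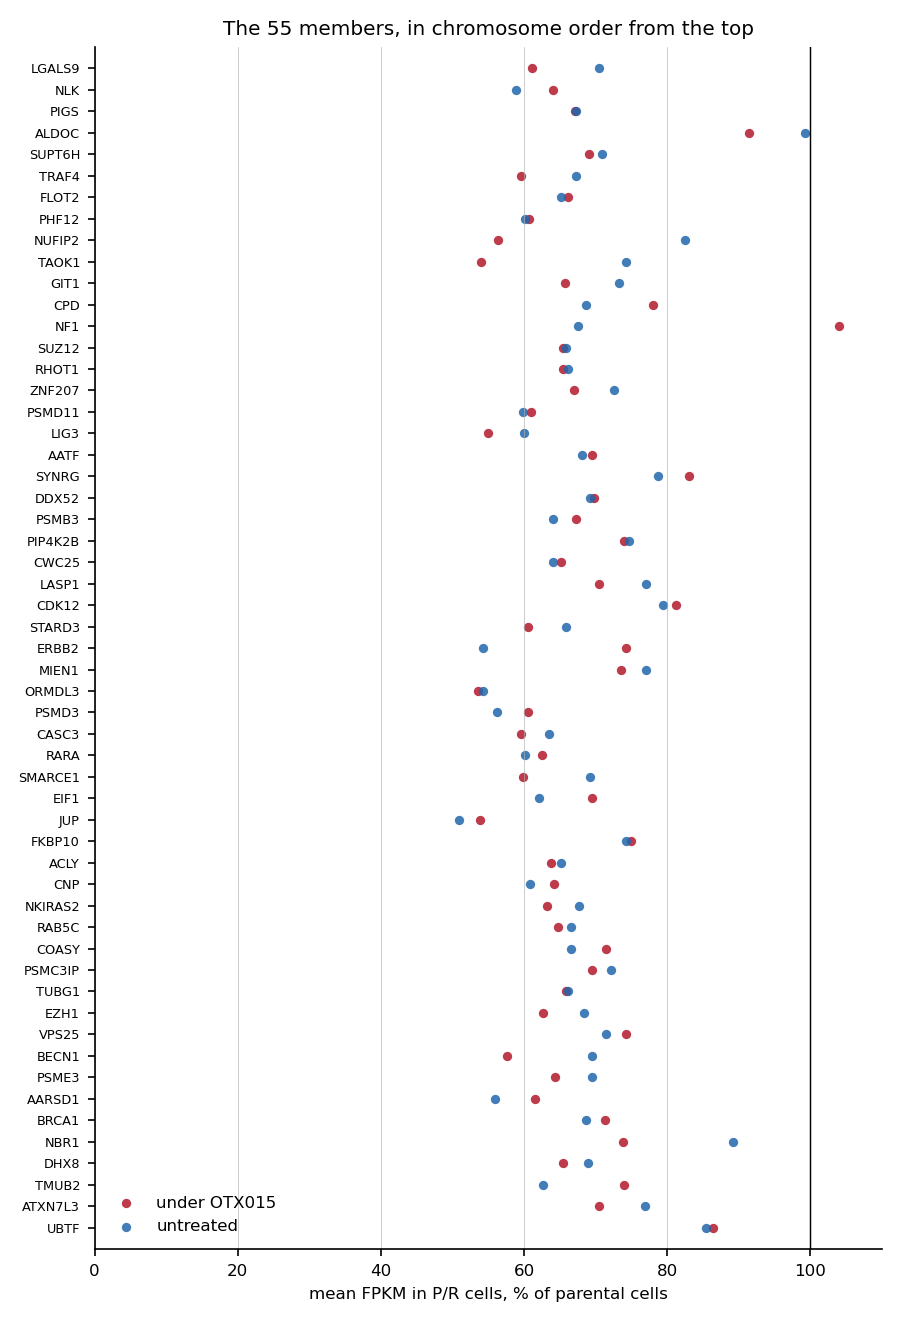
Mean level in P/R cells as a percentage of the mean in parental cells (x axis) for the 55 members in chromosome order from LGALS9 at the top to UBTF at the bottom, under OTX015 (red) and untreated (blue), n = 2 libraries a group. Most points lie between 55% and 75%; ALDOC, UBTF, NBR1 untreated and NF1 under OTX015 stand nearest to 100%.

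Under OTX015 45 of 55, and untreated 43 of 55, had between 55% and 75% of the parental level. The SD of the log2 difference across members was 0.18 under OTX015 and 0.17 untreated, a spread that the choice of genes with lower values narrows. For 47 members (85.5%) the differences with and without the drug were within 0.2 of each other, as were those of 75.9% of all tested genes; the choice bears on this share too. Levels among members ran from 1.53 FPKM, in both untreated P/R libraries for ERBB2, to 606 FPKM for EIF1, and level and difference were weakly related across the 55 members (Pearson r = -0.25 under OTX015 and -0.24 untreated, a description in which all members share the same 8 libraries).

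**Figure D2:**
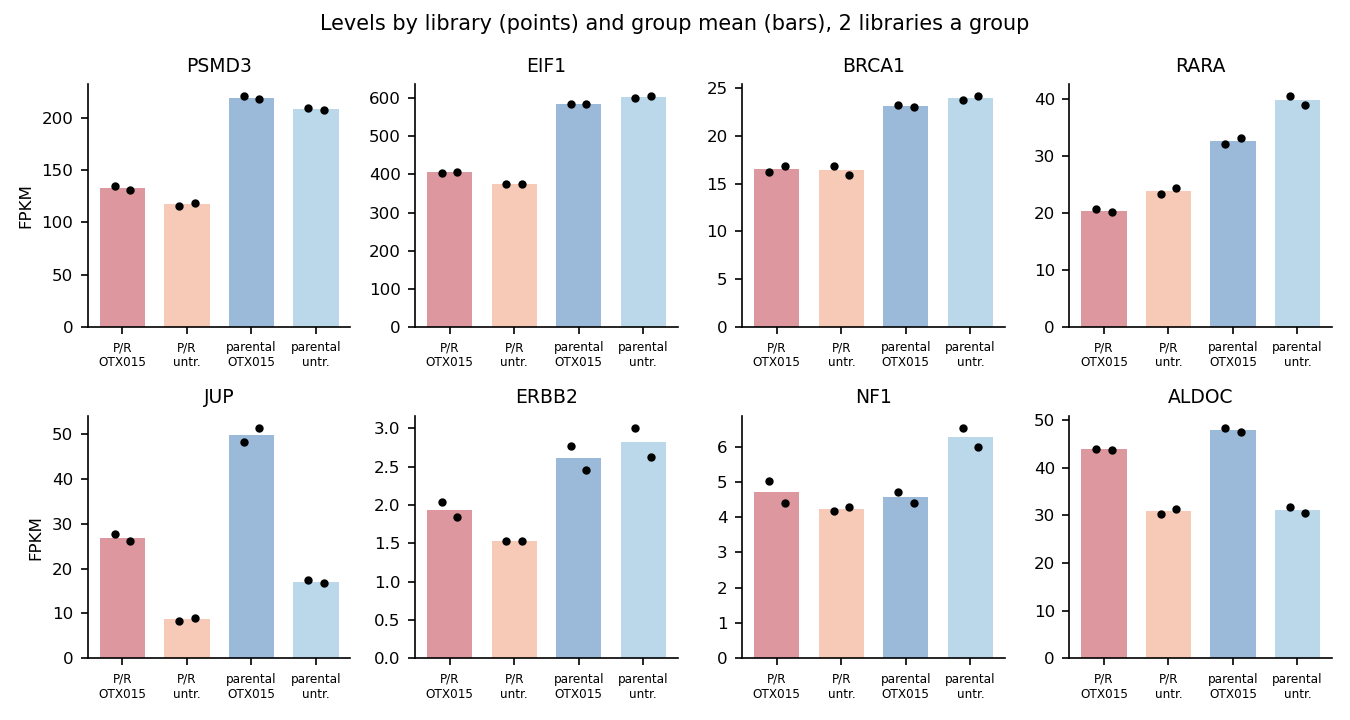
Level in FPKM (y axis, from 0) of 8 members in each library (points) with the group mean (bars), for P/R OTX015, P/R untreated, parental OTX015 and parental untreated cells, 2 libraries a group. PSMD3, EIF1, BRCA1 and RARA lay lower in P/R cells in both conditions, JUP rose with OTX015 in both lines, NF1 lay lower untreated and overlapped under OTX015, and ALDOC was close to parental cells.

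Of the 4 proteasome genes, PSMD3 and PSMD11 stood further below parental cells than the median member in both conditions. The proteasome degrades proteins tagged with ubiquitin: PSMB3 is a structural subunit of the 20S core, PSMD3 and PSMD11 belong to the 19S lid, and PSME3 (PA28 gamma) is an activator of nuclear proteasomes. PSMD3 had 135 and 131 FPKM in P/R cells under OTX015, against 221 and 218 FPKM in parental cells under OTX015. Untreated, it had 116 and 119 FPKM in P/R cells and 210 and 208 FPKM in parental cells. The 4 P/R libraries were all far below the 4 parental ones, with log2 differences of -0.72 ± 0.04 (SE) under OTX015 and -0.83 ± 0.04 untreated. PSMD11 had 71.9 and 70.6 FPKM in P/R cells and 117 and 116 FPKM in parental cells under OTX015, with 71.0 and 75.2 FPKM against 124 and 120 FPKM untreated. PSMB3, the most abundant of the group, had 282 and 274 FPKM in P/R cells against 422 and 405 FPKM in parental cells under OTX015. Its untreated levels were 261 and 264 FPKM in P/R cells and 418 and 399 FPKM in parental cells. For PSMB3 and PSMD11 too the lines did not overlap in either condition. PSME3 stood at 64.3% of its parental level under OTX015 and 69.5% untreated, but it overlaps BECN1 in the annotation, and strand was not stated.

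Of the chromatin and transcription members, 9 of 9 had log2 differences below 0 in both conditions, with medians of -0.53 under OTX015 and -0.48 untreated. Over all tested genes, 53.0% were below 0 under OTX015 and 52.1% untreated. The members were chosen on these differences, so the count is not a trait of the group. SUZ12, a core subunit of Polycomb repressive complex 2, which methylates histone H3, had 10.4 and 11.4 FPKM in P/R cells against 16.7 and 16.5 FPKM in parental cells under OTX015. Its untreated levels were 11.5 and 11.7 FPKM in P/R cells and 16.7 and 18.5 FPKM in parental cells. EZH1, a catalytic subunit of the same complex, stood at 62.6% of parental under OTX015 and 68.3% untreated. Both genes thus had lower values in every P/R library than in every parental library of the same condition. SMARCE1, a subunit of the SWI/SNF remodelling complex, had 55.5 and 63.0 FPKM in P/R cells against 101 and 96.9 FPKM in parental cells under OTX015, and 72.8 and 71.7 FPKM against 107 and 102 FPKM untreated. PHF12, a partner of the Sin3 deacetylase complex, stood at 60.7% of parental under OTX015 and 60.1% untreated. SUPT6H, the histone chaperone that travels with RNA polymerase II, stood at 69.0% and 70.9%, AATF, a nucleolar protein of ribosome assembly, at 69.5% and 68.1%, and ATXN7L3, of the deubiquitinating module of SAGA, at 70.5% and 76.9%. CDK12, a kinase of the polymerase II tail, was nearer to parental cells, at 81.2% under OTX015 and 79.4% untreated.

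UBTF, which activates ribosomal DNA transcription by RNA polymerase I and ends the stretch, was nearer still, with 62.4 and 62.3 FPKM in P/R cells against 73.0 and 71.3 FPKM in parental cells under OTX015. Untreated, UBTF had 69.6 FPKM in both P/R libraries and 84.6 and 78.3 FPKM in the parental ones. The lines did not overlap, but the log2 difference was only -0.21 ± 0.05 under OTX015 and -0.22 ± 0.05 untreated.

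Among the signalling members, the lines overlapped under OTX015 for NF1. NF1, a GTPase activator that switches RAS off, had 5.03 and 4.41 FPKM in P/R cells and 4.72 and 4.39 FPKM in parental cells under OTX015. Untreated it had 4.18 and 4.28 FPKM in P/R cells, against 6.54 and 5.99 FPKM in parental cells, with no overlap. The log2 difference was 0.04 ± 0.10 under OTX015 and -0.47 ± 0.10 untreated. NF1 holds EVI2A, EVI2B and OMG inside it on the other strand and has partial copies elsewhere in the genome, so its value is uncertain.

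ERBB2, a receptor tyrosine kinase, was the lowest of all members in level. It had 2.04 and 1.84 FPKM in P/R cells against 2.77 and 2.45 FPKM in parental cells under OTX015, and 1.53 FPKM in both P/R libraries against 3.01 and 2.63 FPKM untreated. Levels were lower in P/R cells throughout, with differences of -0.30 ± 0.11 under OTX015 and -0.59 ± 0.11 untreated. MIEN1, which overlaps ERBB2, stood at 73.6% of parental under OTX015 and 77.0% untreated. RARA, the retinoic acid receptor alpha, had 20.6 and 20.2 FPKM in P/R cells against 32.1 and 33.2 FPKM in parental cells under OTX015, and 23.3 and 24.4 FPKM against 40.5 and 39 FPKM untreated. These values did not overlap in either condition.

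NLK, Nemo-like kinase, which phosphorylates TCF/LEF factors of the WNT pathway, had 10.6 and 10.4 FPKM in P/R cells and 16.4 FPKM in both parental libraries under OTX015. Untreated, NLK had 13.7 and 13.2 FPKM in P/R cells and 22.4 and 23.5 FPKM in parental cells, again with no overlap. TRAF4, an adaptor of the TNF receptor-associated factor family, stood at 59.6% of parental under OTX015 and 67.3% untreated, NKIRAS2, an inhibitor of NF-kB signalling, at 63.2% and 67.6%, and the lipid kinase PIP4K2B at 73.9% and 74.6%. TAOK1, a kinase upstream of stress-activated MAP kinases, stood at 54.0% under OTX015 and 74.3% untreated; 1 of its untreated parental libraries had 3.32 FPKM and overlapped the P/R value of 3.37 FPKM.

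JUP and ORMDL3, of the cell surface, adhesion and membrane traffic group, had the lowest levels relative to parental cells. JUP, plakoglobin or gamma-catenin, a junction protein and close relative of beta-catenin, had 27.6 and 26.1 FPKM in P/R cells under OTX015, against 48.2 and 51.4 FPKM in parental cells under OTX015. Untreated JUP had 8.36 and 8.97 FPKM in P/R cells and 17.4 and 16.7 FPKM in parental cells. The lines were wide apart in both conditions, by -0.87 ± 0.07 under OTX015 and -0.90 ± 0.07 untreated. ORMDL3, an inhibitor of serine palmitoyltransferase in sphingolipid synthesis, had 10.9 and 13.2 FPKM in P/R cells against 24.5 and 20.3 FPKM in parental cells under OTX015. It had 10.8 and 12.1 FPKM against 22.2 and 20.0 FPKM untreated, so that P/R cells had 53.6% and 54.2% of the parental level.

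LGALS9, or galectin-9, a sugar-binding lectin at the centromere end of the stretch, had 8.31 and 7.65 FPKM in P/R cells against 13.3 and 12.8 FPKM in parental cells under OTX015. Untreated it had 8.41 and 8.37 FPKM in P/R cells and 12.7 and 11.1 FPKM in parental cells, with no overlap, although its gene has near-identical copies. The endosomal GTPase gene RAB5C stood at 64.7% of parental under OTX015 and 66.6% untreated. FLOT2, of lipid rafts, stood at 66.1% and 65.2%, and PIGS, of the complex that attaches GPI anchors, at 67.1% and 67.2%. STARD3, a cholesterol transfer protein, stood at 60.6% and 65.9%, GIT1, an ARF GTPase activator, at 65.7% and 73.3%, the actin-binding LASP1 at 70.4% and 77.0%, and VPS25, of the ESCRT-II sorting complex, at 74.3% and 71.5%. CPD, carboxypeptidase D, and SYNRG, a partner of the AP-1 clathrin adaptor, stood nearer to parental cells under OTX015 than the median member. Their differences were -0.31 ± 0.14 under OTX015 and -0.40 ± 0.14 untreated for CPD, and -0.24 ± 0.11 and -0.29 ± 0.11 for SYNRG.

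Among RNA processing and translation genes, 7 of 7 had log2 differences below 0 in both conditions, a count that follows from the choice of members. Over all tested genes, 53.0% were below 0 under OTX015 and 52.1% untreated. EIF1, which helps the ribosome choose the start codon, was the most abundant member, with 405 and 407 FPKM in P/R cells and 585 FPKM in both parental libraries under OTX015. Untreated, EIF1 had 375 and 374 FPKM in P/R cells, against 602 and 606 FPKM in parental cells. The lines were far apart and the replicates nearly equal. AARSD1, an editing enzyme for mischarged alanine tRNA, had 24.9 and 20.8 FPKM in P/R cells against 35.0 and 39.2 FPKM in parental cells under OTX015, and 27.9 and 28.5 FPKM against 50.8 and 50.2 FPKM untreated. No library overlapped, although reads of AARSD1 may be divided with PTGES3L-AARSD1, a read-through transcript. CASC3, of the exon junction complex, stood at 59.6% of parental under OTX015 and 63.5% untreated. The spliceosome genes CWC25 and DHX8 stood at 65.2% and 65.5% under OTX015 and 64.0% and 68.9% untreated, and the helicase gene DDX52 at 69.7% and 69.2%. NUFIP2, an RNA-binding partner of the fragile X protein, had 12.5 and 11.8 FPKM in P/R cells and 18.7 and 24.5 FPKM in parental cells under OTX015, with no overlap. Its untreated levels of 14.5 and 14.4 FPKM in P/R cells and 15.7 and 19.3 FPKM in parental cells were closer, with a difference of -0.25 ± 0.13 and no overlap.

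The 3 genes of DNA repair and recombination were lower in P/R cells in both conditions, which follows from the choice of members. LIG3, the DNA ligase of single-strand break repair and of mitochondria, had 12.6 and 11.4 FPKM in P/R cells against 22.2 and 21.6 FPKM in parental cells under OTX015, and 19.7 and 15.1 FPKM against 28.8 and 29.2 FPKM untreated. BRCA1, which acts in repair by homologous recombination, had 16.2 and 16.9 FPKM in P/R cells against 23.3 and 23.1 FPKM in parental cells under OTX015. Untreated BRCA1 levels were 16.9 and 15.9 FPKM in P/R cells and 23.8 and 24.2 FPKM in parental cells. Neither gene overlapped between the lines. PSMC3IP, a cofactor of strand exchange in homologous recombination, stood at 69.5% of parental under OTX015 and 72.1% untreated.

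Metabolic members included ALDOC, the brain-type aldolase of glycolysis, which scarcely differed. ALDOC had 43.9 and 43.6 FPKM in P/R cells against 48.4 and 47.4 FPKM in parental cells under OTX015, and 30.3 and 31.4 FPKM against 31.7 and 30.4 FPKM untreated. The lines overlapped untreated, and the differences of -0.13 ± 0.05 under OTX015 and -0.01 ± 0.05 untreated were small. ACLY, which makes cytosolic acetyl-CoA from citrate, stood at 63.7% of parental under OTX015 and 65.1% untreated, COASY, of coenzyme A synthesis, at 71.4% and 66.5%, and CNP, a cyclic nucleotide phosphodiesterase known from myelin, at 64.2% and 60.8%. Of the cytoskeletal and mitochondrial genes, TUBG1 (gamma-tubulin, which nucleates microtubules) stood at 65.8% and 66.2%, ZNF207, a spindle protein, at 66.9% and 72.5%, and RHOT1, which tethers mitochondria to motors, at 65.4% and 66.2%.

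BECN1, which starts autophagy with the class III PI3-kinase, had 34.4 and 35.3 FPKM in P/R cells and 63.1 and 58.0 FPKM in parental cells under OTX015. Its untreated levels were 31.1 and 33.9 FPKM in P/R cells and 45.7 and 47.9 FPKM in parental cells. The gap was wide in both conditions, at -0.78 ± 0.07 under OTX015 and -0.51 ± 0.07 untreated, but BECN1 overlaps PSME3 and CNTD1 in the annotation, and strand was not stated. NBR1, a receptor that carries ubiquitinated cargo into autophagosomes, stood at 73.8% of parental under OTX015 and 89.2% untreated. FKBP10, a collagen chaperone, stood at 75% and 74.3%, and TMUB2 at 74.0% and 62.7%.

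Other genes of the same stretch had similar values. Between LGALS9 and UBTF the annotation placed 188 tested genes, 133 of them no members, and 113 of these 133 were lower in P/R cells under OTX015 and 107 untreated, with a median difference of -0.52 in both conditions. The stretch was chosen on these values, so this is a description. On the log2(FPKM + 1) scale, which shrinks the differences of genes near 0, the largest difference was that of THRA, a thyroid hormone receptor gene, with 2.40 and 2.05 FPKM in P/R cells against 6.41 and 6.13 FPKM in parental cells under OTX015, and 3.96 and 4.31 FPKM against 12.9 and 13.1 FPKM untreated. A few genes between the members went the other way. IGFBP4, a binding protein of insulin-like growth factors, had 2.18 and 2.57 FPKM in P/R cells and 0.934 and 1.40 FPKM in parental cells under OTX015, and 3.81 and 4.13 FPKM against 1.90 and 2.15 FPKM untreated. RHBDL3, a rhomboid protease family gene, was higher in P/R cells under OTX015, at 2.40 and 2.45 FPKM against 0.828 and 0.920 FPKM, and overlapped untreated, at 4.91 and 4.62 FPKM against 4.70 and 3.94 FPKM.

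**Figure D3:**
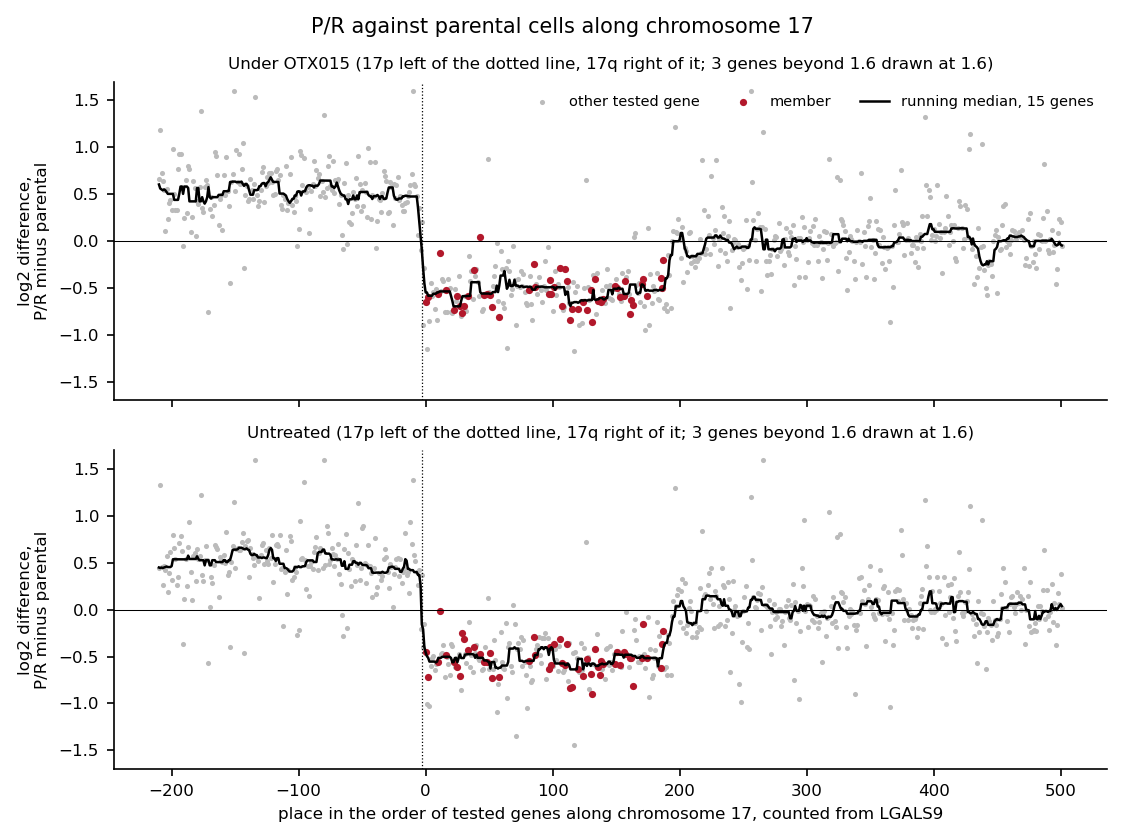
Log2 difference, P/R minus parental (y axis), of tested genes of chromosome 17 in chromosome order (x axis, places counted from LGALS9), under OTX015 and untreated; red points are the 55 members, grey points other genes, the line a running median of 15 genes and the dotted line the boundary of 17p and 17q. The line runs near 0.5 along 17p, stays between -0.70 and -0.32 under OTX015 and between -0.64 and -0.40 untreated in the stretch, and returns to about 0 after it; 3 genes a panel beyond 1.6 are drawn at 1.6.

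Across the centromere, on 17p, most values were of the other sign. Along 17p, the 208 tested genes had median differences of 0.53 under OTX015 and 0.51 untreated, and 165 and 166 of them were higher in P/R cells (12.7% and 11.7% of all tested genes were). Of tested genes, KSR1, a scaffold of RAS signalling, and WSB1, of a ubiquitin ligase, lay on 17q before LGALS9. KSR1 had 127 and 107 FPKM in P/R cells against 137 and 147 FPKM in parental cells under OTX015, and 115 and 111 FPKM against 123 and 130 FPKM untreated. WSB1 had 29.3 and 31.2 FPKM against 56 and 58.5 FPKM under OTX015 and 35.7 and 36.0 FPKM against 44.6 and 51.0 FPKM untreated. WSB1 thus lay lower in P/R cells in both conditions, while KSR1 missed the threshold untreated (-0.16) and passed under OTX015 (-0.29). The lower values therefore did not begin sharply at LGALS9.

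At the far end, the neighbours of UBTF were lower as well. SLC25A39, a mitochondrial carrier, had differences of -0.71 under OTX015 and -0.63 untreated, GRN, the progranulin gene, -0.67 and -0.61, and FAM171A2 -0.74 and -0.70. ITGA2B, the platelet integrin subunit, differed by -0.15, which missed the threshold, and -0.27. The next genes, GPATCH8 and FZD2, a WNT receptor, were lower again, by -0.36 and -0.72 under OTX015 and -0.35 and -0.69 untreated. Of those that followed, CCDC43, DBF4B and EFTUD2 did not pass in either condition, with 0.00, 0.11 and 0.10 under OTX015 and -0.07, 0.09 and 0.03 untreated. GJC1, a connexin gene between DBF4B and EFTUD2, was higher in P/R cells, by 1.22 under OTX015 and 1.30 untreated. The values thus give no sharp end to the stretch at UBTF. The 314 tested genes of 17q after UBTF had median differences of 0.00 under OTX015 and -0.01 untreated, although those next to UBTF were lower. The label of lower 17q genes thus does not describe the arm as a whole. On 22 other chromosomes the median ran from -0.15 to 0.02 under OTX015 and from -0.14 to 0.03 untreated. Chromosome 17 as a whole had medians of 0.01 under OTX015 and -0.01 untreated, within these ranges. A median over a whole chromosome thus cannot show whether a stretch of it differs between the lines.

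The second comparison asks how the members responded to OTX015 in each line. The choice of genes did not use either response, but it used the differences between the lines in both conditions and so bears on how far the responses of the lines can differ. Differences are OTX015 minus untreated, tested by limma over all 11255 genes. In P/R cells 18 of 55 members rose (32.7%, against 22.5% of all tested genes), 9 fell (16.4%, against 21.8%) and 28 did not pass; 49.1% of members passed in either direction, against 44.3% of all tested genes. In parental cells 21 rose (38.2%, against 25.7%), 10 fell (18.2%, against 24.7%) and 24 did not pass; 56.4% passed in either direction, against 50.4%. In both lines 16 members rose, 7 fell in both, 4 passed in P/R cells alone, 8 in parental cells alone and 20 in none, counts of shared direction on which the choice of genes bears. The matching shares over all tested genes were not taken, so nothing about the members is read from these joint counts. Left-out libraries moved some counts: 11 members rose in P/R cells without untreated P/R replicate 2, and 5 fell without untreated P/R replicate 1, without its replicate 2 or without P/R OTX015 replicate 2. In parental cells 4 fell without untreated parental replicate 1 and 6 without parental OTX015 replicate 2.

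JUP and CPD gave by far the largest rises. JUP rose 3.1-fold in P/R cells (log2 difference 1.53 ± 0.07, adjusted p = 1.13e-06) and 2.93-fold in parental cells (1.49 ± 0.07, adjusted p = 8.1e-07). CPD had 6.51 and 5.29 FPKM under OTX015 against 2.45 and 1.98 FPKM untreated in P/R cells, and 8.41 and 6.72 FPKM against 3.08 and 3.38 FPKM in parental cells. Its rise was 1.10 ± 0.14 in P/R cells (adjusted p = 0.00023) and 1.01 ± 0.14 in parental cells (adjusted p = 0.000289). Treated and untreated libraries of CPD did not overlap in either line.

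Several genes of transcription and traffic also rose in both lines. SUPT6H had 50.5 and 46.1 FPKM under OTX015 against 34.5 and 34.3 FPKM untreated in P/R cells, and 68.0 and 71.9 FPKM against 48.8 and 48.2 FPKM in parental cells, rises of 0.48 ± 0.06 and 0.52 ± 0.06 (adjusted p = 0.000233 and 0.000105). ALDOC rose by 0.49 in P/R cells and 0.61 in parental cells, CNP by 0.44 and 0.37, SYNRG by 0.46 and 0.41, EZH1 by 0.43 and 0.57, and ATXN7L3 by 0.35 and 0.48. TUBG1 rose by 0.32 and 0.33, CDK12 by 0.31 and 0.28, NBR1 by 0.28 and 0.54, LASP1 by 0.26 and 0.38, STARD3 by 0.25 and 0.37, TRAF4 by 0.23 and 0.40, and GIT1 by 0.19 and 0.35. In the chromatin and transcription group, 4 of 9 members rose in each line, where 22.5% of all tested genes rose in P/R cells and 25.7% in parental cells. Of the same 9, 2 fell in P/R cells (21.8% of all tested genes did) and 1 in parental cells (24.7%). With 9 genes, these counts are a description and not a trait of the group.

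The largest fall in P/R cells was that of LIG3, and in parental cells that of NLK. LIG3 fell by 0.49 ± 0.11 in P/R cells (adjusted p = 0.00602) and by 0.39 ± 0.11 in parental cells (adjusted p = 0.0154), a call that was lost in 4 of 16 other settings. NLK fell by 0.33 ± 0.07 in P/R cells (adjusted p = 0.00348) and by 0.46 ± 0.07 in parental cells (adjusted p = 0.000484). FKBP10 fell by 0.31 and 0.33, AARSD1 by 0.30 and 0.44, RARA by 0.22 and 0.28, FLOT2 by 0.21 and 0.23, and UBTF by 0.16 and 0.17. The proteasome genes moved little: PSMD3 rose by 0.17 ± 0.04 in P/R cells (adjusted p = 0.0068), PSME3 fell by 0.13 ± 0.04 there (adjusted p = 0.0377), and PSMB3 and PSMD11 passed in neither line. The PSME3 call was lost in 9 of 16 other settings.

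**Figure D4:**
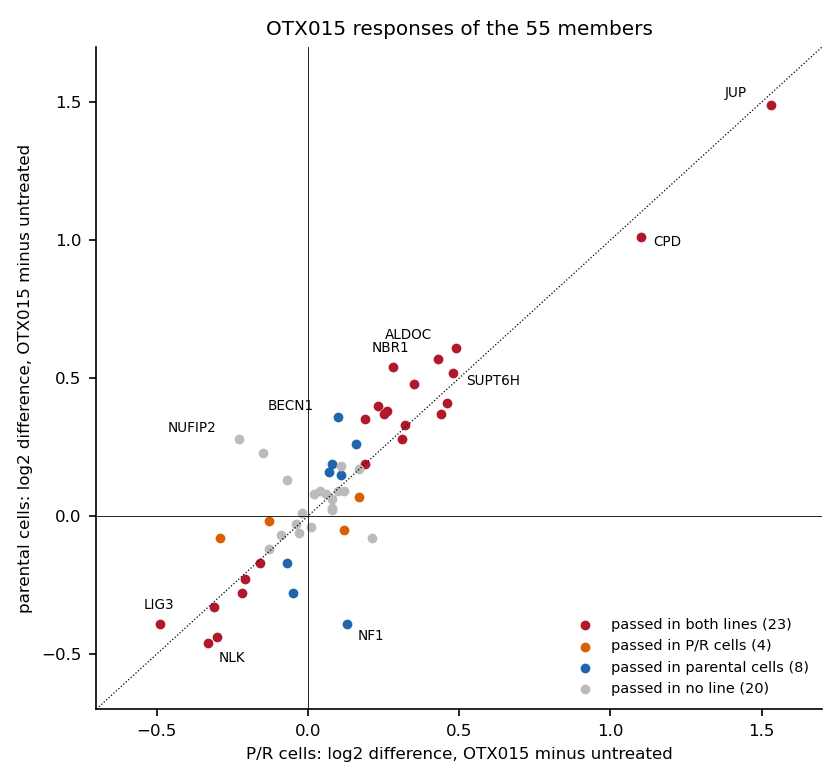
OTX015 response of each of the 55 members in P/R cells (x axis) and parental cells (y axis), as log2 differences of OTX015 minus untreated; colours show in which line a member passed the limma test and the dotted line marks equal responses. JUP and CPD stand at the upper right, LIG3 and NLK at the lower left, and NF1 and NUFIP2 lie furthest from the line of equal responses.

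The difference between the responses of the lines equals the difference between the line differences that chose the genes, so its values are a description and the count that passed carries no independent information. No member passed the interaction term in limma (0.08% of all tested genes, or 9, did, 0.0178% with a lower and 0.0622% with a higher response in P/R cells). At an unadjusted p under 0.05 there were 5 members, NF1, EIF1, BECN1, NUFIP2 and SMARCE1, where 9.6% of all tested genes reached that level; limma was the only tool run. Among these NF1 had 5.03 and 4.41 FPKM under OTX015 against 4.18 and 4.28 FPKM untreated in P/R cells, and 4.72 and 4.39 FPKM against 6.54 and 5.99 FPKM in parental cells. Its response was 0.13 ± 0.10 in P/R cells (adjusted p = 0.329) and a fall of 0.39 ± 0.10 in parental cells (log2 -0.39, adjusted p = 0.00959), and the difference between the responses was 0.51 ± 0.14. NUFIP2 had a difference of -0.51 ± 0.18, BECN1 -0.27 ± 0.09, SMARCE1 -0.21 ± 0.09 and EIF1 0.16 ± 0.05. With 2 libraries a group, an exact two-sided permutation test of a single gene could not go below 0.333, so the tests of the responses rest on limma's pooled spread.

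The third comparison looks at partners of the members' proteins that are encoded elsewhere. Of 209 tested partner genes outside the stretch, 29 were lower in P/R cells under OTX015 (13.9%, against 11.7% of all tested genes) and 33 untreated (15.8%, against 11.9%), and 16 and 20 were higher. The partner genes had a median difference of -0.04 in both conditions. Leaving out a library moved these counts: under OTX015 19 and 17 were lower without parental OTX015 replicate 1 or 2, and 18 without P/R OTX015 replicate 1. Untreated, 18, 20, 16 and 15 were lower without parental replicate 1, parental replicate 2, P/R replicate 1 or P/R replicate 2. Without parental OTX015 replicate 1, 8 were higher under OTX015, and without untreated P/R replicate 1, 11 were higher untreated.

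Proteasome genes elsewhere were lower in P/R cells for 7 of 36 under OTX015 (19.4%) and 11 of 36 untreated (30.6%), and the 3 largest differences were on chromosome 14. PSMB5, the chymotrypsin-like subunit of the core on chromosome 14, had 87.8 and 85.2 FPKM in P/R cells against 129 and 126 FPKM in parental cells under OTX015, and 105 and 104 FPKM against 167 and 159 FPKM untreated (log2 difference -0.56, adjusted p = 2.86e-05, and -0.64, adjusted p = 1.45e-05, by limma). PSME1 and PSME2, subunits of the 11S activator that are also on chromosome 14, differed by -0.53 and -0.61 under OTX015 and by -0.58 and -0.64 untreated. PSMD2, of the 19S base on chromosome 3, differed by -0.49 and -0.43. PSMB6 on 17p went the other way, with 181 and 185 FPKM in P/R cells against 142 and 141 FPKM in parental cells under OTX015 and a difference of 0.37 there and 0.40 untreated.

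Of all 208 tested genes on 17p, 165 were higher in P/R cells under OTX015 and 166 untreated. All 5 partner genes on 17p were among these in both conditions. Beside PSMB6 they were PRPF8, the core protein of the spliceosome (0.92 under OTX015 and 0.79 untreated), EIF4A1, the translation helicase (0.59 and 0.55), USP22, the SAGA deubiquitinase that works with ATXN7L3 (0.60 and 0.58), and NCOR1, the corepressor of RARA (0.99 and 0.69). USP22 had 103 and 104 FPKM in P/R cells against 66.6 and 69.4 FPKM in parental cells under OTX015, and 82.7 and 77.5 FPKM against 52.8 and 53.6 FPKM untreated. USP22 was thus higher in P/R cells, where ATXN7L3 had lower values.

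In the other complexes the number of partners that passed varied. Of all tested genes, 24.4% passed in either direction under OTX015 and 23.5% untreated. Of 9 Polycomb repressive complex 2 partners, 1 was lower in each condition, RBBP7 under OTX015 (-0.20) and EED untreated (-0.29). EZH2, the other catalytic subunit, had 26.6 and 27.9 FPKM in P/R cells against 30.6 and 30.2 FPKM in parental cells under OTX015, and 21.2 and 22.9 FPKM against 25 and 24.1 FPKM untreated, and passed in neither. Of 11 partners of BRCA1, only BABAM1 passed, lower by -0.22 in both conditions. Of 17 SWI/SNF genes, 3 were lower in each condition, led by ACTL6A (-0.65 under OTX015 and -0.48 untreated), and 2 under OTX015 and 5 untreated were higher, among them SMARCA2 (0.31 and 0.32). SPTSSA, a small subunit of the serine palmitoyltransferase that ORMDL3 restrains, was lower, by -0.68 and -0.56. SUPT16H, a histone chaperone subunit on chromosome 14, was lower by -0.59 and -0.56. Whether the places of these partners in the genome bear on their differences was not tested.

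**Figure D5:**
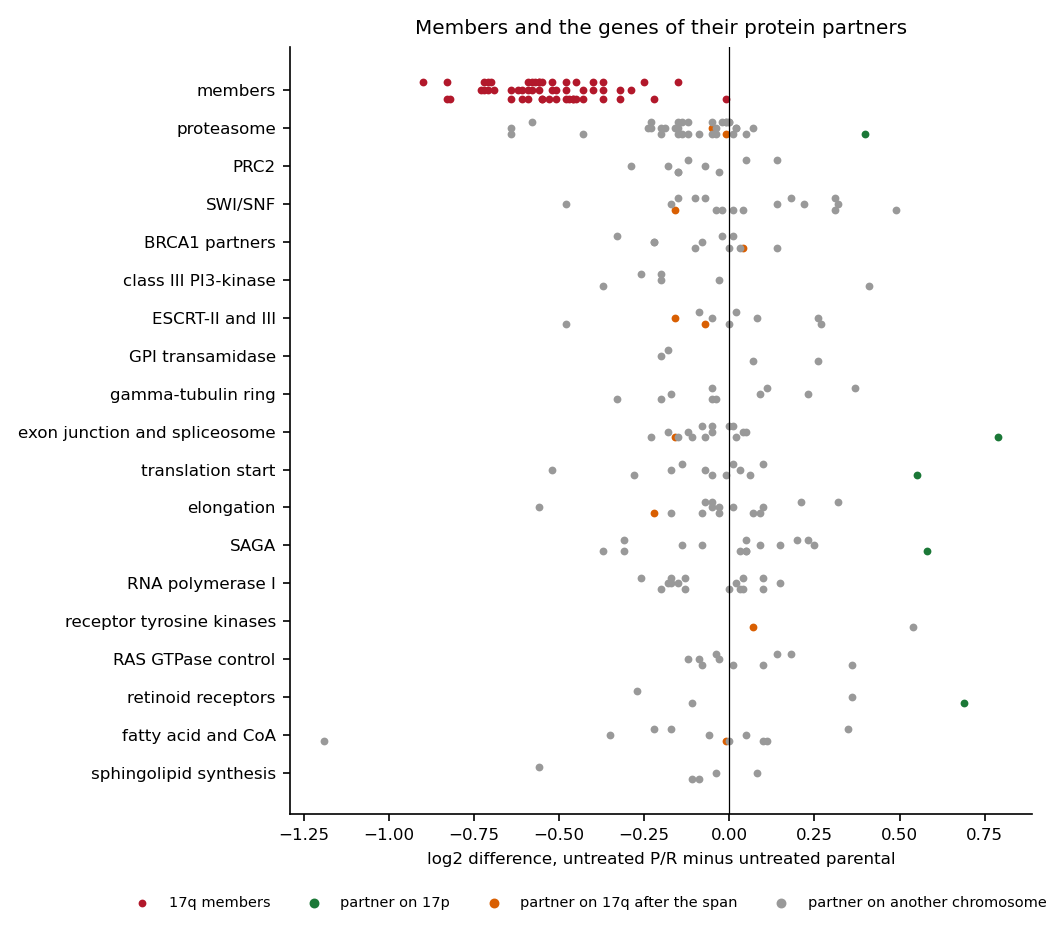
Log2 difference of untreated P/R minus untreated parental cells (x axis) for the 55 members (top, red) and for the tested partner genes by complex or pathway (other lines), coloured by place in the genome; each point is 1 gene, n = 2 libraries a group. Members lie between -0.90 and -0.01, partners on 17p between 0.40 and 0.79, and the other partners between -1.19 and 0.54.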

How the data were processed

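RNA sequencing of 8 libraries (2 biologic replicates in each of 4 groups) was deposited by the authors as a table of 19718 genes in FPKM, a unit inferred from its values and tools. Reads were aligned with TopHat2 2.0 to hg19 and quantified with Cufflinks 2.0, per the submitters' processing notes, which name these tools without their settings. The deposited values were quantile normalized by the authors, and the totals of all libraries were equal. Depth is therefore unknown and no counting interval can be given. Shifts common to a whole library were removed. The sources used here do not state strand or RNA selection.

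From these values, log2(FPKM + 1) was fitted with limma 3.58.1 in R 4.3.3 over the 11255 genes with at least 1 FPKM in at least 2 libraries, with all 8 libraries, 4 group means and a variance trend (4 residual and 5.23 prior degrees of freedom). Tests were two-sided with Benjamini-Hochberg adjustment at 0.05 over all tested genes, and the code was tested on simulated data. Tables were handled with pandas 2.3.3. Among the deposited symbols, 28 had been turned into numbers, and genes were matched by Ensembl identifier; 19472 were placed in chromosome order by a GRCh38 annotation, used for order alone. Promoters came from RefSeq, GRCh38.p14. The members and all gene lists were chosen with earlier results of these data known. By the rule for named genes, all members could be named by role. Values in every library were planned for the end genes LGALS9 and UBTF and the 6 furthest below parental cells in each condition. They were also planned for members not lower, the 6 largest rises and falls with OTX015, and others where needed to show a role. Some members that the rule covers, among them TRAF4, SYNRG, CNP, EZH1, NBR1 and FKBP10, are given without library values. Other genes were the 3 tested on either side of the stretch, up to 4 that passed from each partner list, and up to 5 of the stretch with the largest differences each way; ITGA2B, GPATCH8, FZD2, CCDC43, DBF4B, GJC1, EFTUD2 and EZH2 fall outside it and were chosen after their values were seen. Other settings tried left out each library, blocked on replicate number, set the pseudocount to 0.1 or 5, dropped the filter or required 5 FPKM on average, dropped the variance trend, centred each library on its median, fitted only the libraries compared, or asked for a log2 difference of 0.3 or more; a crossed block was added after seeing the data.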

Additional observations from a re-analysis of the deposited data

Results flagged for a closer look

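For 3 members both P/R libraries moved one way with OTX015 and both parental libraries the other way (5.45% of the 55 members, against 2.07% of all 11255 tested genes). The difference between the responses, P/R minus parental on the log2 scale, was 0.51 for NF1, 0.16 for EIF1 and -0.19 for LGALS9. None of the 3 passed limma's interaction term over all genes (adjusted p of 0.294 for NF1, 0.309 for EIF1 and 0.675 for LGALS9), but the genes were chosen on the line differences that make up this term, so it gives no independent test. For NF1 the parental fall alone passed, and for EIF1 the rise in P/R cells alone passed, which does not show that the lines differed.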

How the results depend on the processing

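Of 303 single-gene results, 4813 values under other settings gave 4460 with the same direction and side of the threshold, 333 past it no longer, 9 newly past it and 11 reversed. The 11 came from leaving out a library and none had passed before: ALDOC untreated 0.02 and 0.01, WNK4 untreated 0.08 and 0.04, CCL5 untreated -0.08 and -0.17, NF1 under OTX015 0.00 and -0.04, PTGES3L-AARSD1 -0.25 and PTGES3L 0.00 under OTX015, and the OTX015 response of TMUB2 in P/R cells 0.04. Over all left-out libraries, WNK4 ran from -0.14 to 0.08, CCL5 from -0.17 to 0.27, NF1 from -0.04 to 0.12, PTGES3L-AARSD1 from -0.25 to 0.35, PTGES3L from 0.00 to 0.18 and TMUB2 from -0.15 to 0.04. Calls of the OTX015 response held in every one of 16 settings for 14 of 27 members in P/R cells and 21 of 31 in parental cells.

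Requiring a log2 difference of at least 0.3 left, by its construction, 10 members that rose and 3 that fell in P/R cells, 5 that fell in parental cells, 12 partner genes lower and 10 higher under OTX015 and 15 lower untreated. Genes with a different response between the lines numbered 9, against 4 with a pseudocount of 0.1, 29 with 5, 4 with no filter and 3 with no variance trend. The members' median became -0.60 and -0.49 under OTX015 with pseudocounts of 0.1 and 5, -0.59 with a mean of at least 5 FPKM, and -0.45 untreated with a pseudocount of 5. The cause was not tested.

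Leaving out each library in turn gave members' medians of -0.60 to -0.56 under OTX015 and -0.55 to -0.53 untreated, and 11 to 18 members that rose and 5 to 8 that fell in P/R cells. In parental cells 18 to 21 rose and 4 to 10 fell. Partner genes lower numbered 17 to 24 under OTX015 and 15 to 38 untreated, and higher 8 to 17 and 11 to 18. Other genes of the stretch that were lower numbered 88 to 111 and 84 to 110. Over all genes, calls between the lines numbered 1758 to 2624 under OTX015 and 1594 to 2684 untreated, OTX015 calls 3623 to 5012 in P/R and 4344 to 5738 in parental cells, and different responses 0 to 8.

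The replicate numbers are only labels: same-numbered libraries deviated together with correlations of -0.12 to 0.104. A fit with the replicate block gave 2 genes with a different response and left the counts of members that rose and fell with OTX015 at 18, 9, 21 and 10. A crossed pairing, chosen after seeing the data, gave 2548 genes called between the lines under OTX015. With 2 libraries a group, small differences cannot be resolved, and unknown depth leaves the counting error of low genes unstated.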
